A study of Mus musculus with 12 samples.

Results

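Leukocyte miRNAs were followed in serum of mice before and after a human neuroblastoma xenograft. They were chosen by miRBase accession as 7 of the 874 mature mouse miRNAs listed over all libraries: miR-142a-5p (MIMAT0000154), miR-142a-3p (MIMAT0000155), miR-150-5p (MIMAT0000160), miR-155-5p (MIMAT0000165), miR-223-3p (MIMAT0000665), miR-146a-5p (MIMAT0000158) and miR-146b-5p (MIMAT0003475). Of these, 6 were listed in at least 1 library and miR-142a-3p was listed in none. A miRNA that was not listed in a library was taken as a count of 0.

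The 12 small RNA libraries were made from 6 sera of 3 female athymic NCr nude mice (mice 1046, 1047 and 1069). Surgery at an age of 4 to 6 weeks placed human SH-SY5Y cells, a neuroblastoma cell line, below the capsule of the kidney. Each mouse was bled 1 week before and 2 weeks after this surgery. Each serum gave an aliquot depleted of 5′ tRNA fragments with biotinylated DNA probes and streptavidin beads, and an undepleted aliquot, which made 4 groups of 3 libraries. The paper refers to the undepleted RNA as the same samples, but does not describe how the RNA of these mice was divided. All mice received the cells, so that the tumor and the elapsed time cannot be told apart, and athymic mice lack a thymus but keep B cells and myeloid cells. The spread within a group is a spread between mice, while the aliquots of 1 serum share an animal and a draw.

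The 5 miRNA families differ in where blood cells use them. miR-142 is made in nearly all blood cells and in few other tissues, miR-150 is abundant in mature lymphocytes, and miR-223 is a hallmark of granulocytes and monocytes. miR-155 and miR-146 are induced when immune cells are activated, miR-155 mostly as a driver of the response and miR-146 as a brake on inflammatory signaling. A serum library holds RNA that cells released or lost during clotting, so that a change in the number of cells and a change in release per cell cannot be told apart.

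The mature sequences are shown because the seed (bases 2 to 8 from the 5′ end, in capitals), through which a miRNA recognizes its targets, sets which of these miRNAs belong together. They were taken from RefSeq (GRCm38.p6), where 6 of the 7 miRNAs matched:
miR-142a-5p: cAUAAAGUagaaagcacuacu
miR-142a-3p: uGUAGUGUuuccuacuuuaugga
miR-155-5p: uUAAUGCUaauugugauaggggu
miR-223-3p: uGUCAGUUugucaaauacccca
miR-146a-5p: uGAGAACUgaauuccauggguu
miR-146b-5p: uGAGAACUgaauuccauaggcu

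miR-146a-5p and miR-146b-5p were the only pair with a common seed, GAGAACU. Their first 17 of 22 bases were identical, and they differed by the substitutions G18A and U21C (miR-146a-5p base first, positions counted from the 5′ end). They come from different loci in GRCm38, miR-146a-5p from the minus strand of chromosome 11 (43374435 to 43374456) and miR-146b-5p from the plus strand of chromosome 19 (46342790 to 46342811), within an intron of Mfsd13a. The 2 strands of the miR-142a hairpin lie on the plus strand of chromosome 11, 142a-5p at 87756867 to 87756887 and 142a-3p at 87756903 to 87756925, in an intron of the long noncoding RNA gene Mir142hg. miR-155-5p (chromosome 16, 84714143 to 84714165, plus strand) lies in an exon of the noncoding Mir155hg, and miR-223-3p (chromosome X, 96242884 to 96242905, plus strand) in an exon of the noncoding gene F630028O10Rik. The Mir150 hairpin (chromosome 7, 45121757 to 45121821) overlaps no other annotated gene.

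Depleted libraries held between 938706 and 1820856 mouse miRNA counts before injection and between 1741384 and 2271549 after. Undepleted libraries held between 21235 and 97183 before and between 49443 and 68140 after, so their values for rare miRNAs rest on few counts. Levels are given in CPM, counts-per-million of the mouse miRNA counts of a library. The 7 miRNAs together made up 3.65 to 4.53% of counts in depleted libraries and between 3.802 and 4.83% in undepleted libraries. miR-451a, miR-144-3p and miR-16-5p were grouped here as erythroid miRNAs, although the paper took miR-16-5p as a stably expressed serum miRNA. In depleted libraries before injection miR-16-5p alone took 12.6%, 12.5% and 10.8% of counts (mice 1046, 1047 and 1069). Together these miRNAs took 22.6 to 28.4% of counts in depleted libraries before injection and 11.2 to 16.2% after. In undepleted libraries their share was 24.2 to 29.7% before and 10.9 to 16.5% after, and miR-486a-5p, also erythroid, was not listed. The shares did not overlap between the time points in either kind of library, which by arithmetic leaves a larger share of CPM to all other miRNAs after injection.

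miR-142a-5p dominated the leukocyte miRNAs, with 78.0 to 84.7% of their counts in every library. In depleted libraries it took 3.66%, 3.00% and 3.61% of all mouse miRNA counts before injection (mice 1046, 1047 and 1069) and 3.37%, 3.35% and 3.62% after. In undepleted libraries it took 3.81%, 3.48% and 3.13% before and 3.03%, 3.87% and 3.91% after. The time points overlapped in both kinds of library, and no library lay far from the others.

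The other strands and families followed at distinct levels. Over the 6 depleted libraries the median was 34905 CPM for miR-142a-5p, 3453 CPM for miR-146b-5p, 2302 CPM for miR-150-5p, 898 CPM for miR-146a-5p, 860.4 CPM for miR-223-3p and 6.97 CPM for miR-155-5p. The ranges of neighbors in this order did not overlap except for miR-146a-5p and miR-223-3p, which are not separated. In undepleted libraries the order of the medians was the same (36440.0, 3746, 1754, 1233, 876 and 10.7 CPM), but miR-150-5p, miR-146a-5p and miR-223-3p overlapped with their neighbors. Counts do not give molecule numbers across miRNAs, because ligation and amplification differ between sequences.

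**Figure D1:**
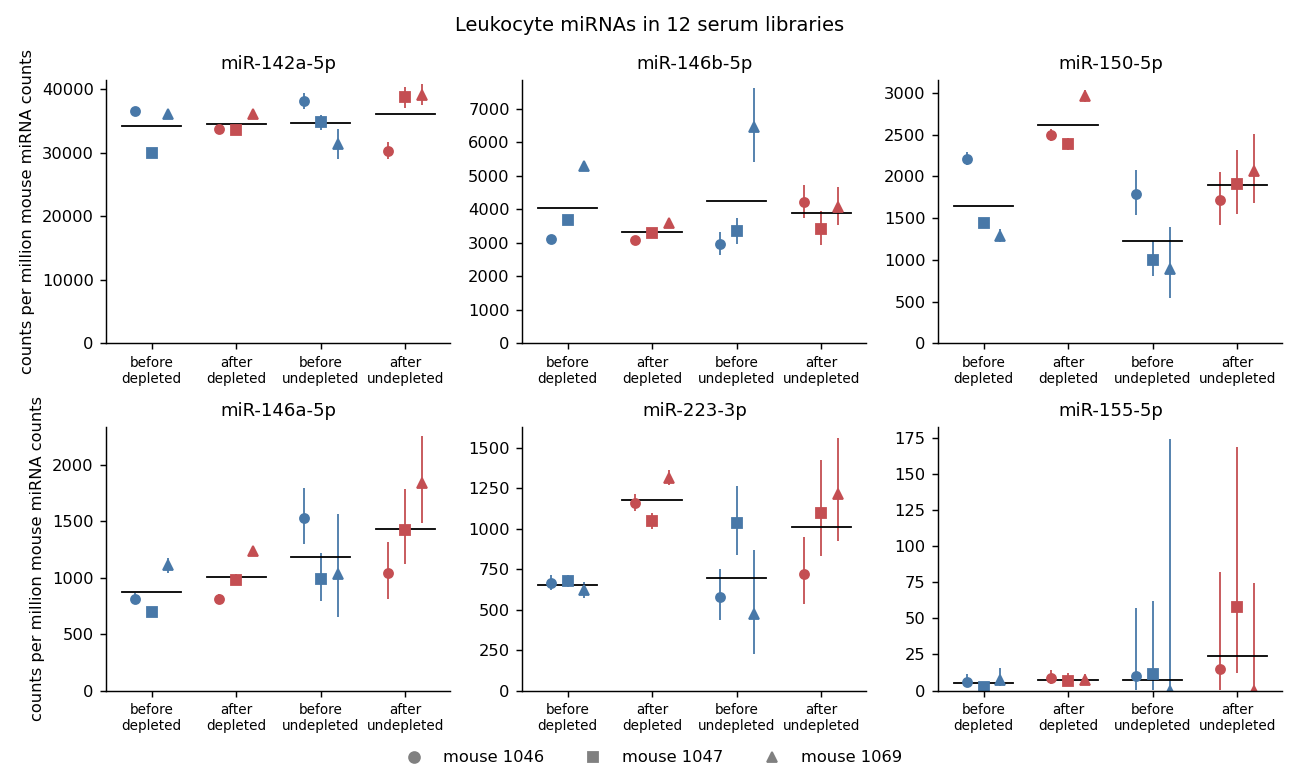
Levels in CPM (counts-per-million of mouse miRNA counts, vertical axes, linear, from 0) of the 6 listed leukocyte miRNAs in each of the 12 libraries. Points are libraries (marker by mouse, blue before and red after injection), bars are exact 95% binomial intervals that cover counting error only, and black lines are group means. In depleted libraries the red points of miR-150-5p and miR-223-3p lie above all blue points, and the bars of miR-155-5p in undepleted libraries span most of the axis.

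miR-142a-3p, the strand that is usually read as the main product of this hairpin in blood cells, was absent from all 12 mouse tables. In the human tables, made from the same reads, hsa-miR-142-3p was listed in every library, with 904, 1266 and 692 counts in depleted libraries before injection and 1425, 1105 and 1300 after. Undepleted libraries held 92, 95 and 21 counts before and 90, 37 and 54 after. It was thus counted before any human cell had been implanted, and in all it had 7081 counts.

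The mouse table row closest to it over the 12 libraries, found by comparing counts, was MIMAT0031402. The summed difference was 14 counts (0.198% of the human total), the counts were identical in 8 of 12 libraries, and the next closest row differed by 14.7%. The files do not pair this accession with a name. RefSeq places a further mature miRNA, miR-142b, on the minus strand at 87756906 to 87756925 of chromosome 11, opposite miR-142a-3p. The 2 sequences are shown with the 20 bases that are complementary to each other in capitals (bases 4 to 23 of miR-142a-3p):
miR-142a-3p: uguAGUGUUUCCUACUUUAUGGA
miR-142b: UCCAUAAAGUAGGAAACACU

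The strand on which reads were counted is not given in the sources used here, and whether MIMAT0031402 holds reads of miR-142a-3p was not tested. Its level was 665, 695 and 737 CPM in depleted libraries before injection and 801, 637 and 573 CPM after. In undepleted libraries it was 947, 1056 and 989 CPM before and 1321, 712 and 1092 CPM after. The time points overlapped in both kinds of library, and the row stood at 0.0159 to 0.0438 of the miR-142a-5p count. On the log2 scale this ratio differed between time points by -0.09 ± 0.41 in depleted libraries (SD of the differences within mice, n = 3 mice, unpaired exact permutation test, p = 0.8). In undepleted libraries it differed by -0.03 ± 0.77 (SD of the differences within mice, n = 3 mice, unpaired exact permutation test, p = 1). It was lower in the depleted aliquot in 5 of 6 sera, by 0.53 ± 0.34 on the log2 scale (SD, exact permutation of signs, p = 0.0625, adjusted p = 0.3 over 9 ratio tests).

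The other human rows were compared in the same way. hsa-miR-150-5p and hsa-miR-223-3p had the same counts as the mouse rows in 12 of 12 libraries, hsa-miR-142-5p differed by 15 counts in all and hsa-miR-146b-5p by 2. For these miRNAs the human table therefore adds no separate measurement. Their counts after injection thus cannot be assigned to mouse or human cells, which also limits the comparisons of time points. hsa-miR-146a-5p had 7515 counts against 9865 in the mouse table, between 59.1 and 87.8% of the mouse count in each library and lower in all 12. hsa-miR-155-5p was listed in no human table, against 68 counts in the mouse tables. For miR-146a-5p and miR-155-5p the mouse tables thus held more reads than the human ones, also after injection.

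**Figure D2:**
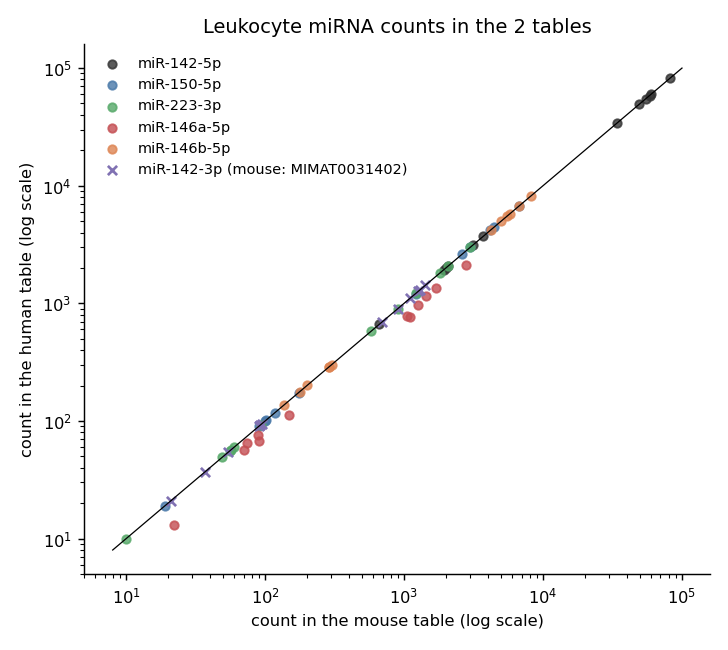
Count in the human table (vertical axis) against count in the mouse table (horizontal axis) of the same library, both on log scales, for 5 leukocyte miRNAs (dots) and for hsa-miR-142-3p against MIMAT0031402 (crosses). The line marks equal counts, and the 12 points of miR-146a-5p lie below it, with a human count of 59.1 to 87.8% of the mouse count. miR-155-5p, with no human count, is not drawn.

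The first comparison asked which leukocyte miRNAs differed between sera drawn before and 2 weeks after injection. None of the 5 that could be tested was called changed in depleted libraries (DESeq2 Wald test, Benjamini-Hochberg adjusted p under 0.05 and at least 2-fold), against 32 of 277 miRNAs tested in all (11.6%). At an unadjusted p under 0.05 DESeq2 gave 2 of them (93 of 861 miRNAs fitted in all), and edgeR called 0 and gave 0 at that level (124 of 861). miR-223-3p and miR-146b-5p were those 2 in DESeq2, and they moved in opposite directions.

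The myeloid miR-223-3p had normalized counts (divided by DESeq2 size factors of the depleted libraries) of 1202, 1351 and 925 before injection (mice 1046, 1047 and 1069) and 1659, 1508 and 1966 after. All after-injection sera were above all before-injection sera, and in CPM the values were likewise separate (667, 674 and 618 against 1160.4, 1047 and 1314). The log2 fold change was 0.53 ± 0.26 (SE), with an adjusted p of 0.144 (unadjusted 0.0396). Without the prior that pulls fold changes towards 0, it was 0.56, with a 95% interval of 0.03 to 1.095. When library totals were taken as size factors, the log2 fold change was 0.81 with a DESeq2 adjusted p of 0.00367, still under 2-fold. That scaling raised the median of all miRNAs by 0.25, and relative to the median miR-223-3p stood at 0.67 there and at 0.64 in the first fit. With the erythroid miRNAs left out of the totals it was 0.59 with a DESeq2 adjusted p of 0.064.

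The partner strand of the same hairpin, miR-223-5p, is far less abundant. It had 147, 245 and 71 counts in depleted libraries before injection and 394, 540 and 733 after, which is 109, 135 and 75.6 CPM before and 221, 310.1 and 323 CPM after. Again the groups did not overlap in CPM, as in 34.2% of the 184 miRNAs with a mean of at least 50 CPM (separate and higher after). The log2 fold change was 0.99 ± 0.32 (SE) with a DESeq2 adjusted p of 0.0164, a 1.98-fold difference that stopped short of the 2-fold limit. In all, 52 of 277 miRNAs tested (18.8%) had an adjusted p under 0.05 in this fit. miR-223-5p passed the limit without the prior (log2 fold change 1.099, adjusted p = 0.0155) and in edgeR (1.104, adjusted p = 0.018), and with 1 mouse or 1 library left out the adjusted p ran from 0.00365 to 0.151. It was above 0.05 without any of the 3 mice, and without the before-injection library of mouse 1046 (0.0663) or the after-injection library of mouse 1047 (0.0973) or 1069 (0.151). In undepleted libraries it had 1 to 13 counts and a log2 fold change of 0.27 ± 0.51 (SE), with a DESeq2 adjusted p of 0.853.

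The lymphoid miR-150-5p had 2215, 1438 and 1290.1 CPM in depleted libraries before injection and 2493, 2390.1 and 2962 CPM after. In CPM all sera after injection were higher than all before. As normalized counts the groups overlapped, since mouse 1046 had 3994 before and 3564 after, while mouse 1047 went from 2882 to 3444 and mouse 1069 from 1931 to 4432. The log2 fold change was 0.35 ± 0.28 (SE), with a DESeq2 adjusted p of 0.374 and, without the prior, a 95% interval of -0.23 to 0.98. As normalized counts it was higher after in 2 of 3 mice, and the log2 fold change was 0.033 without mouse 1069 and 0.66 without mouse 1046.

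miR-146b-5p was the only leukocyte miRNA with lower normalized counts in all sera after injection. It had 5622, 7388 and 7916 in depleted libraries before and 4416, 4753 and 5396 after. The log2 fold change was -0.49 ± 0.25 (SE), with a DESeq2 adjusted p of 0.152 (unadjusted 0.0444). It was -0.26 with a DESeq2 adjusted p of 0.584 when library totals were the size factors, and -0.48 with an adjusted p of 0.0429 without mouse 1069, under 2-fold in both. In CPM the groups overlapped, at 3117, 3686 and 5289 before and 3089, 3299 and 3607 after.

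miR-146a-5p, with the same seed, had 812, 695 and 1110.0 CPM in depleted libraries before injection and 813, 983 and 1236 after. The groups overlapped through mouse 1069, which had 1110.0 before, and each mouse was higher after in CPM. Its log2 fold change was -0.03 ± 0.26 (SE), with a DESeq2 adjusted p of 0.954, and its direction turned with the scaling (0.20 with library totals). For miR-142a-5p the log2 fold change was -0.25 ± 0.23 (SE) with an adjusted p of 0.458, and for MIMAT0031402 it was -0.32 ± 0.25 (SE) with an adjusted p of 0.355.

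miR-155-5p had 8, 4 and 7 counts in depleted libraries before injection and 15, 12 and 16 after, against totals that were also larger after. Undepleted libraries held 1, 1 and 0 counts before and 1, 3 and 0 after. Summed over a group, these were 4.63 CPM (exact 95% binomial interval 2.78 to 7.22) and 7.42 CPM (5.37 to 10.00) in depleted libraries, and 9.60 CPM (1.16 to 34.7) and 23.6 CPM (6.43 to 60.4) in undepleted libraries. The intervals overlap between time points, but they pool the mice of a group, cover counting error only and do not test a difference. Independent filtering left miR-155-5p without an adjusted p. Its log2 fold change was 0.20 ± 0.51 (SE, DESeq2 unadjusted p = 0.704) in depleted and 0.20 ± 0.39 (unadjusted p = 0.602) in undepleted libraries. A difference between time points was not detected at this depth.

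Over the 5 testable miRNAs, CPM values did not overlap and were higher after in 2 (miR-150-5p and miR-223-3p), against 34.2% of the 184 miRNAs with a mean of at least 50 CPM in depleted libraries. Normalized counts were separate and higher in 1 (miR-223-3p), against 26.6%, and separate and lower in 1 (miR-146b-5p), against 22.8%. With 5 miRNAs, these counts do not stand apart from the shares over all miRNAs.

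In undepleted libraries none of the 5 testable leukocyte miRNAs was called changed (DESeq2, 12 of 159 in all, 7.55%). None had an unadjusted p under 0.05 in DESeq2 or in edgeR. miR-150-5p stood at 1790.4, 1000.0 and 895 CPM before and 1717, 1906 and 2063 CPM after. In CPM it was higher after in 2 of 3 mice, and mouse 1046 was the exception. miR-223-3p stood at 576, 1033 and 471 CPM before and 719, 1097 and 1214 CPM after, with overlapping groups. It was higher after in 3 of 3 mice in CPM and in 2 of 3 as normalized counts, where mouse 1047 went from 66.8 to 59.2.

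The log2 fold changes in undepleted libraries were 0.41 ± 0.32 (SE) for miR-150-5p, 0.28 ± 0.37 for miR-223-3p, 0.11 ± 0.32 for miR-146a-5p, -0.14 ± 0.26 for miR-146b-5p and -0.06 ± 0.23 for miR-142a-5p. The DESeq2 adjusted p-values lay between 0.533 and 0.900. No leukocyte miRNA was separate between time points in CPM (background 21.8% higher and 13.4% lower of 179 miRNAs) or in normalized counts (17.3% and 14.5%).

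Whether the time point acted differently in the 2 kinds of aliquot was tested as an interaction, without pairing by serum. It was called for 0 of 874 miRNAs (0%) in DESeq2, with 3 at an unadjusted p under 0.05, and for 0 in edgeR, with 11 at that level. All 6 listed leukocyte miRNAs had a DESeq2 adjusted p of 0.998, so that the separate groups of miR-223-3p in depleted libraries are not shown to differ from the overlapping ones in undepleted libraries.

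**Figure D3:**
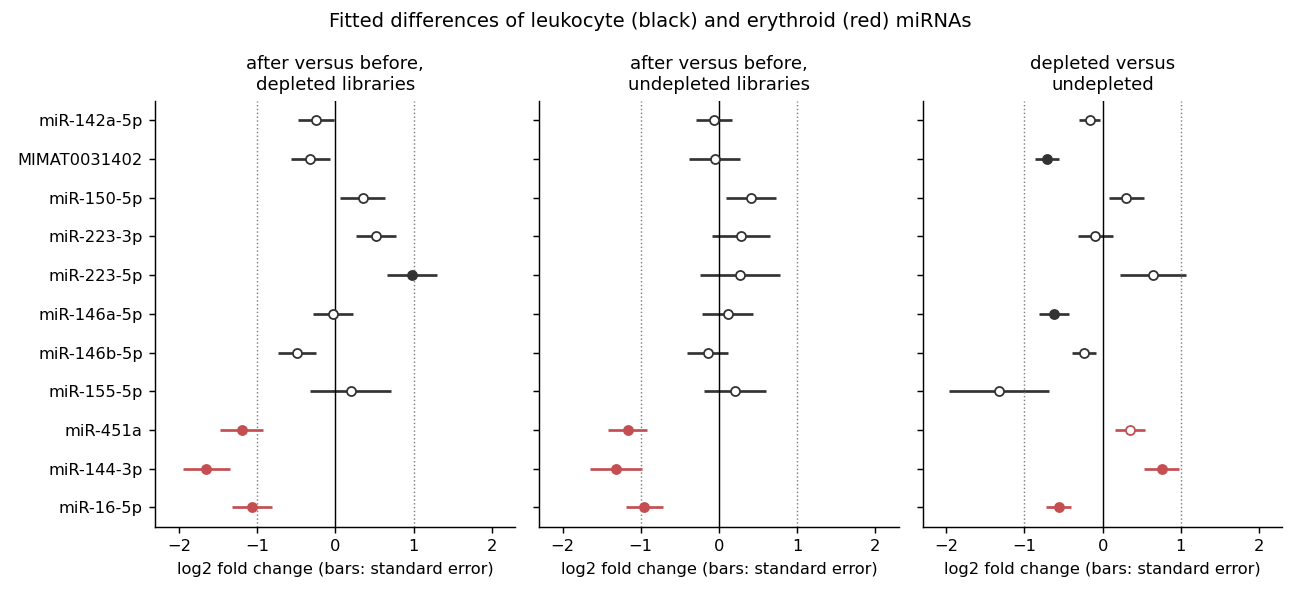
Log2 fold changes from DESeq2 (horizontal axes, dotted lines at 2-fold) with standard errors as bars, for leukocyte miRNAs (black) and erythroid miRNAs (red), in 3 comparisons. Filled points have an adjusted p under 0.05. All 3 erythroid miRNAs are near or below -1 in both time-point comparisons, whereas the leukocyte miRNAs lie between -0.49 and 0.53 there, apart from the partner strand miR-223-5p at 0.99 in depleted libraries.

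Lymphoid and myeloid miRNAs were then compared within each library, as the ratio of miR-150-5p to miR-223-3p counts, which does not depend on scaling. In depleted libraries the ratio was 3.32, 2.13 and 2.09 before injection (mice 1046, 1047 and 1069) and 2.15, 2.28 and 2.25 after. It was higher after in 2 of 3 mice, and the before-injection serum of mouse 1046 was the highest. The mean difference on the log2 scale was -0.14 ± 0.42 (SD of the paired differences, n = 3 mice), with p = 1 in an exact permutation test, which cannot give less than 0.1 with 3 against 3.

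In undepleted libraries the ratio was 3.09, 0.968 and 1.86 before and 2.37, 1.73 and 1.69 after. The difference was 0.11 ± 0.64 (SD, n = 3 mice) on the log2 scale (exact permutation test, p = 1). The sera of mouse 1046 had the highest ratio in undepleted libraries at both time points. The ratio was higher in the depleted aliquot in 5 of 6 sera (log2 difference 0.35 ± 0.44, SD over 6 sera, exact two-sided permutation of signs, p = 0.0938, adjusted p = 0.3 over 9 ratio tests).

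**Figure D4:**
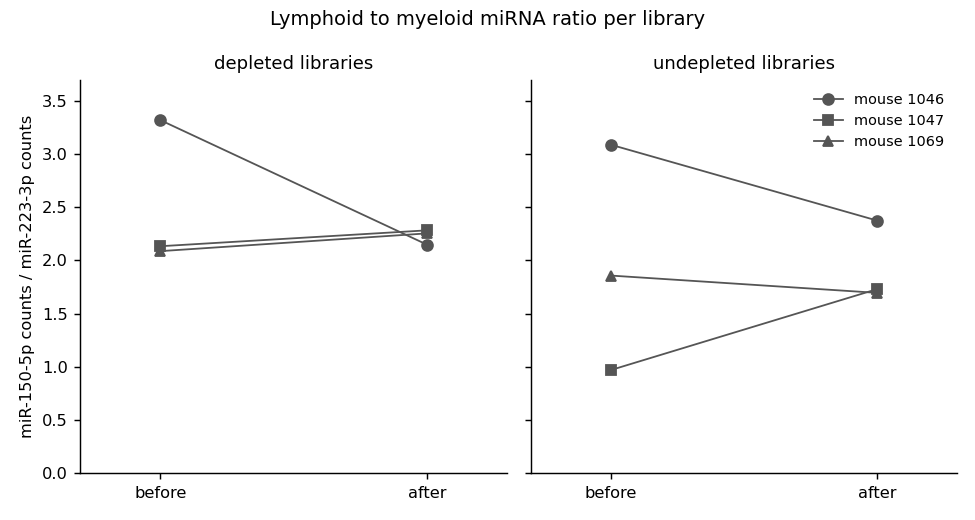
Ratio of miR-150-5p to miR-223-3p counts (vertical axis, linear, from 0) before and after injection in each mouse, for depleted (left) and undepleted (right) libraries. Lines join the sera of 1 mouse. After injection the 3 mice lie at 2.15 to 2.28 in depleted libraries, and before injection mouse 1046 lies highest in both panels.

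The ratio of miR-146a-5p to miR-146b-5p, the pair with a common seed, was higher after injection by 0.46 ± 0.39 on the log2 scale in depleted libraries (SD over 3 mice), at 0.189 to 0.261 before and 0.263 to 0.343 after. It was higher after in 3 of 3 mice, and the groups did not overlap. Mouse 1046 held both edges of this separation, with nearly the same ratio before (0.261) and after (0.263). The exact permutation p was 0.1, the smallest that 3 against 3 allows, and the adjusted p was 0.3. In undepleted libraries the difference was 0.30 ± 1.28 (SD, n = 3 mice, exact permutation test, p = 0.7), higher in 2 of 3 mice.

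Depleted and undepleted aliquots were compared, to see whether the depletion altered these miRNAs. None of the 6 tested was called (DESeq2 with time point as a term and no pairing by serum, 31 of 417 in all, 7.43%), while edgeR also called 0. Unadjusted p-values under 0.05 were found for 2 in DESeq2 (83 of 874 miRNAs fitted in all) and 1 in edgeR (108 of 874).

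miR-146a-5p was lower in the depleted aliquot in 5 of 6 sera, with a CPM ratio of depleted to undepleted between 0.530 and 1.07. Normalized over all 12 libraries it had 268 ± 50 counts in depleted and 410 ± 116 in undepleted aliquots (SD, n = 6). The log2 fold change was -0.62 ± 0.19 (SE) with a DESeq2 adjusted p of 0.0124, under the 2-fold limit. In this unpaired fit it was 1 of 6 leukocyte miRNAs past the adjusted p alone, against 12.9% of all miRNAs (5.28% past it and lower). With TMM factors, which raised the median of all miRNAs by 0.28, it was -0.36 with a DESeq2 adjusted p of 0.239.

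miR-150-5p was higher in the depleted aliquot in 6 of 6 sera, with CPM ratios between 1.24 and 1.45. The log2 fold change was 0.30 ± 0.23 (SE), with a DESeq2 adjusted p of 0.491. With the serum as a replicate block it was 0.32 with an adjusted p of 0.0013, and with the same block miR-146a-5p had an adjusted p of 4.15e-06, both still under 2-fold. No share of all miRNAs past the adjusted p alone is given here for this block. These values, and the counts of sera in 1 direction, are thus not set against a background. MIMAT0031402 was lower in the depleted aliquot in 6 of 6 sera (CPM ratios 0.525 to 0.894), with a log2 fold change of -0.72 ± 0.16 (SE) and a DESeq2 adjusted p of 7.03e-05, which became 0.0779 with TMM factors (log2 fold change -0.45) and 0.370 in edgeR (-0.45). Relative to the median of all miRNAs tested it stood at -0.65 in the first fit and at -0.66 with TMM factors.

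miR-142a-5p, miR-146b-5p and miR-223-3p had log2 fold changes of -0.17 ± 0.13 (SE), -0.24 ± 0.15 and -0.09 ± 0.22 between aliquots, with DESeq2 adjusted p-values of 0.516, 0.395 and 0.873. The sign of all 3 turned with TMM factors. miR-155-5p was at -1.33 ± 0.64 (SE) with a DESeq2 adjusted p of 0.208, on 0 to 3 counts per undepleted library. The ratio of miR-146a-5p to miR-146b-5p was lower in the depleted aliquot in 4 of 6 sera (log2 difference -0.35 ± 0.49, SD over 6 sera, exact two-sided permutation of signs, p = 0.156, adjusted p = 0.352).

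Other blood cell miRNAs were read beside these. Of 5 further miRNAs that are abundant in leukocytes (miR-181a-5p, miR-181b-5p, miR-342-3p, miR-342-5p and miR-21a-5p), 4 could be tested between time points in each kind of library, and none was called in either. Over all 5, with the untested miR-342-5p, the median log2 fold change was 0.25 in depleted and 0.20 in undepleted libraries. Over the 6 listed leukocyte miRNAs, with the untested miR-155-5p, it was 0.08 and 0.16. The medians over all miRNAs tested, -0.11 and -0.06, left out such untested miRNAs, so the sets are unlike. Of the 5 partner strands, miR-223-5p alone was testable in depleted libraries.

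All 3 erythroid miRNAs that were listed fell in depleted libraries, with log2 fold changes of -1.20 ± 0.28 (SE) for miR-451a, -1.65 ± 0.30 for miR-144-3p and -1.07 ± 0.25 for miR-16-5p (DESeq2 adjusted p at most 0.000788). In undepleted libraries miR-451a (-1.17) and miR-144-3p (-1.31) fell, and miR-16-5p was at -0.95 with a DESeq2 adjusted p of 0.00134. The muscle miRNA miR-133a-3p fell in both kinds of library (log2 fold changes of -1.64 and -1.35). The endothelial miR-126a-5p was at 0.16 and 0.23 and was not called. miR-126a-3p and the muscle miRNA miR-1a-3p were listed in no mouse library, as was the case for miR-142a-3p and miR-486a-5p. Whether their reads were counted elsewhere was not tested, so this does not show their absence from serum. The liver miRNA miR-122-5p had 0 to 11 counts and could not be tested between time points.

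Between aliquots, 1 of the 5 further leukocyte miRNAs was called, against 31 of 417 miRNAs tested in all (7.43%). With 5 miRNAs, this count does not stand apart from that share. The one called was miR-181b-5p. It stood at 213 to 446 CPM in depleted and 432 to 1159 CPM in undepleted libraries, with a log2 fold change of -1.35 ± 0.17 (SE, DESeq2 adjusted p = 3.56e-13). miR-181a-5p, whose seed family it belongs to, was at -0.04 ± 0.10 (SE) with a DESeq2 adjusted p of 0.885. The difference of miR-181b-5p was past 2-fold with TMM factors as well (-1.096). Of the erythroid, endothelial, liver and muscle miRNAs, only the liver miR-122-5p was called between aliquots. It was lower in depleted libraries (log2 fold change -2.87 ± 0.64, SE, DESeq2 adjusted p = 0.000124), on 0 to 3 counts per undepleted library.

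As a description, the miRNAs whose normalized counts followed those of miR-150-5p and miR-223-3p most closely over the 6 depleted libraries were looked up among 212 miRNAs. For miR-223-3p these were MIMAT0000559 (Pearson r = 0.979), MIMAT0000140 (0.978) and miR-21a-5p (0.966). For miR-150-5p they were MIMAT0017075 (0.956), MIMAT0000517 (0.938) and MIMAT0000609 (0.910). miR-150-5p and miR-223-3p correlated with each other at 0.809 and with miR-146b-5p at -0.740 and -0.708. The 6 libraries share their mice in pairs and a common scaling, and the time points separate them.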

How the data were processed

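Small RNA was measured in 12 murine serum libraries. For each, the authors deposited read counts per mature miRNA in a mouse and a human table, not normalized. The authors had trimmed reads with Cutadapt 1.8.1, filtered them with the FASTX-Toolkit, mapped them with Bowtie 1.1.2 without mismatches and assigned them by overlap with miRBase coordinates (GRCm38/mm10 or GRCh37/hg19). Strand and multiply mapping reads are not given in the sources used here. The tables hold accessions only, so names of miRNAs follow miRBase numbering and, where printed, RefSeq.

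DESeq2 1.42.0 in R 4.3.3 was fitted to all mouse miRNAs with at least 1 count (median-of-ratios size factors, Wald test with prior, independent filtering). Called meant a Benjamini-Hochberg adjusted p under 0.05 and at least 2-fold. Depleted and undepleted libraries were fitted apart, and aliquots on 12 libraries with time point as a term. The main fits did not pair libraries by mouse or serum. The interaction used no prior and the adjusted p alone. Within-library ratios (pseudocount 0.5) were tested by exact two-sided permutation. Alternatives were edgeR 4.0.16, TMM factors, library totals, a filter of 4 counts in 3 libraries, a replicate block, no prior, and each mouse or library left out. Scripts were tested on simulated data. Intervals cover counting error only, since reads carry no molecular identifiers.

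The miRNAs named are the 7 chosen, the called ones of the further lists, and the 3 closest in pattern to miR-150-5p and miR-223-3p. MIMAT0031402, miR-223-5p and the uncalled miRNAs of the lists were named after their values were seen. Members and lists were chosen with earlier results of these data known. Pairing comes from the mouse number in the labels: deviations from group means correlated between the aliquots of a serum (r = 0.598 to 0.750 over 107 miRNAs), and between the time points of a mouse at -0.447 to 0.039 in depleted and -0.486 to -0.075 in undepleted libraries.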

Additional observations from a re-analysis of the deposited data

Results flagged for a closer look

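One result stood out because a signal was present in tables outside the mouse comparisons. hsa-miR-142-3p was listed in all 12 human tables, with 7081 counts in all, while miR-142a-3p was listed in no mouse table. It was present in every serum drawn before human cells were implanted. miR-486a-5p, miR-126a-3p and miR-1a-3p were also listed in no mouse library, and their human counterparts were not compared. Among 8 sets of differences between the aliquots of the 6 sera (log2 CPM ratios and within-library ratios), no serum lay far from the others by Dixon's test, and groups of 3 libraries are too small for that test.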

How the results depend on the processing

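None of the 7 chosen miRNAs was called in a comparison of time points under any alternative run, and the replicate block (mouse or serum) changed no call among them. Between aliquots this rests on the 2-fold limit, since with the serum block miR-150-5p and miR-146a-5p both had an adjusted p under 0.05. Over all miRNAs the block gave 25 calls in place of 32 in depleted libraries, 11 in place of 12 in undepleted libraries and 28 in place of 31 between aliquots. The partner strand miR-223-5p passed both limits in depleted libraries with library totals (1.31, or 1.07 without erythroid miRNAs), in edgeR and without the prior. Without the 2-fold limit, in the unpaired fits, 52 miRNAs changed in depleted libraries in place of 32, and 54 between aliquots in place of 31. The latter held 1 leukocyte miRNA (miR-146a-5p). Leaving out a mouse or library gave 11 to 37 calls in depleted libraries (11 without mouse 1047, 21 without mouse 1069, 12 without the after-injection library of mouse 1069) and 1 to 15 in undepleted libraries in place of 12 (1 without mouse 1047, 7 without mouse 1069).

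Several log2 fold changes near 0 changed sign, and none of these passed the test. Between time points in depleted libraries, miR-146a-5p was at 0.016 with TMM factors, 0.017 in edgeR and 0.20 with library totals, and -0.18 to 0.13 with a library or mouse left out, and miR-142a-5p was at 0.0091 with library totals. miR-150-5p ran from 0.033 to 0.66, miR-223-3p from 0.31 to 0.72 and miR-146b-5p from -0.62 to -0.38 with a library or mouse left out, without a change of sign. In undepleted libraries, miR-142a-5p was at 0.0499 with library totals and miR-146a-5p at -0.0060 with erythroid miRNAs left out of the totals, a scaling added after seeing the data. With a library or mouse left out, the ranges there were -0.31 to 0.16 for miR-142a-5p, -0.067 to 0.74 for miR-223-3p, -0.23 to 0.53 for miR-146a-5p, -0.31 to 0.063 for miR-146b-5p and -0.025 to 0.90 for miR-223-5p.

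Between aliquots, TMM factors and edgeR gave 0.10 and 0.10 for miR-142a-5p, 0.16 and 0.16 for miR-223-3p and 0.036 and 0.033 for miR-146b-5p. These 2 share the TMM scaling, and library totals gave 0.037 for miR-223-3p (0.021 without erythroid miRNAs), with -0.28 to 0.21 when a mouse was left out. TMM shifted the median by 0.28 there, and relative to it all 3 stayed below 0 (miR-142a-5p -0.12, miR-223-3p -0.05, miR-146b-5p -0.18). The cause of the other changes of sign was not tested.

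With a mouse left out, the log2 difference of the miR-150-5p to miR-223-3p ratio between time points ran from -0.27 to 0.10 in depleted and -0.26 to 0.35 in undepleted libraries. For MIMAT0031402 to miR-142a-5p it ran from -0.33 to 0.0498 and from -0.45 to 0.31, and for miR-146a-5p to miR-146b-5p from -0.29 to 0.98 in undepleted libraries. The planned ratio of miR-142a-3p to miR-142a-5p gave no value, since miR-142a-3p was not listed, and MIMAT0031402 was put in its place after seeing the data. Paired by mouse, the replicate block for ratios gave p = 1 for miR-150-5p to miR-223-3p in both kinds of library and p = 0.25 for miR-146a-5p to miR-146b-5p in depleted libraries, the smallest an exact permutation of signs over 3 pairs allows. Depth limits undepleted libraries most, where miR-155-5p had 0 to 3 counts.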
